A study of Mus musculus with 13 samples.

Results

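The mitochondrial calcium uniporter genes were examined as 8 listed rows (Mcu, Mcub, Micu2, Micu3, Smdt1, Mcur1, Letm1 and Slc8b1) of the 21868 genes in the table of normalized counts from gastrocnemius, a hindlimb muscle that moves the ankle and knee. RNA-seq was performed on 13 obese male mice labelled C57BL/6, given as C57BL/6N in the paper. They entered the study at 7 weeks of age, acclimatized for 1 week, and ate a 60 kcal% fat diet for 15 to 17 weeks. All mice were then switched to chow and treated for 3 weeks, so the change of diet was shared by every group. The 5 vehicle mice (mice 1 to 5, labelled vehicle + placebo) received PBS. The 5 semaglutide mice (13 to 17, labelled semaglutide + placebo) received 30 nM/kg/day of the glucagon-like peptide-1 receptor agonist semaglutide by intraperitoneal injection. The 3 semaglutide + ketone ester mice (19, 21 and 22) received the same injections with 0.114 g/mL ketone ester, a dietary source of ketone bodies, in drinking water. The placebo was not described in the sources used here. Each mouse was 1 library of whole muscle. Lean mice and mice given ketone ester alone were not analysed here.

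The uniporter is the channel through which calcium enters the mitochondrial matrix down the membrane potential. Mcu encodes its pore, Mcub a related subunit that lowers channel activity, and Smdt1 the small essential regulator EMRE that joins the pore to its gatekeepers. Micu2 and Micu3 encode EF-hand gatekeepers, and Mcur1 encodes an assembly factor. Letm1 encodes an inner membrane ion exchanger and Slc8b1 the sodium-calcium exchanger NCLX, which returns calcium to the cytosol. In skeletal muscle, calcium released for contraction is taken up by this route and stimulates dehydrogenases of the tricarboxylic acid cycle.

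Libraries held between 15319471 and 23498162 reads on genes. Skeletal muscle markers were detected in every mouse, with Acta1, the sarcomeric actin of skeletal muscle, between 315116 and 830522 normalized counts. Semaglutide mouse 13 stood apart from its group on the first principal component of log2 values, which held 38.1% of the variance: its score was -9.12, against 31.8 to 52.5 in the other semaglutide mice and -24.5 to -12.8 in vehicle mice. The main results that involve it are therefore given with and without it. In whole muscle, fewer cells of a type and less RNA per cell cannot be told apart.

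The main pattern in the members was lower Mcu, Micu2 and Mcur1 in semaglutide mice than in vehicle mice, and higher Mcu and Micu2 with added ketone ester. Smdt1 differed little between group means in these RNA-seq values. The sequences around the transcription starts of these 4 genes are shown because 3 of them fell and Smdt1 did not pass the test. They cover 250 bases before to 50 bases from the start, come from RefSeq on GRCm38.p6, and run 5′ to 3′ on the strand of the gene. RefSeq promoter entries were matched for 6 members (all but Micu3 and Slc8b1). Capitals mark matches on either strand to the GC box GGGCGG or to the NRF1 core TGCGCA.
Mcu, chr10:59616643-59616942, minus strand: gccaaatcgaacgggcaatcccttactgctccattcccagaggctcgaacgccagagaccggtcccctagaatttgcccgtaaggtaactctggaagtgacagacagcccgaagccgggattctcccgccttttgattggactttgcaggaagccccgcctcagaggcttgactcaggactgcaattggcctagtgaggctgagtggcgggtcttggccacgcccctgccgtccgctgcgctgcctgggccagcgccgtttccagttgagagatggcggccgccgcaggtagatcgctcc
Micu2, chr14:57999213-57999512, minus strand: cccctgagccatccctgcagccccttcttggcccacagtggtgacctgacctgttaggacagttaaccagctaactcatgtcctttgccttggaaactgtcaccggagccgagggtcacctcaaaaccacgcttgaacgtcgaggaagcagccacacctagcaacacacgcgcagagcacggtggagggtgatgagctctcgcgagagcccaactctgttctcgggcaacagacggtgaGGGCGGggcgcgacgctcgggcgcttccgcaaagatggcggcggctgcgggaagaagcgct
Mcur1, chr13:43560142-43560441, minus strand: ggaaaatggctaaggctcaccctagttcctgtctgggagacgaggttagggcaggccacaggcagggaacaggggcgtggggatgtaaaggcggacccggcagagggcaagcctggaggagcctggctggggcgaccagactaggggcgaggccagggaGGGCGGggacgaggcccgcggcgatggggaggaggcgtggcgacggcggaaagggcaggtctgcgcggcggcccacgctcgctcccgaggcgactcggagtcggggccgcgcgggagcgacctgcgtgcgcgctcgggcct
Smdt1, chr15:82345796-82346095, plus strand: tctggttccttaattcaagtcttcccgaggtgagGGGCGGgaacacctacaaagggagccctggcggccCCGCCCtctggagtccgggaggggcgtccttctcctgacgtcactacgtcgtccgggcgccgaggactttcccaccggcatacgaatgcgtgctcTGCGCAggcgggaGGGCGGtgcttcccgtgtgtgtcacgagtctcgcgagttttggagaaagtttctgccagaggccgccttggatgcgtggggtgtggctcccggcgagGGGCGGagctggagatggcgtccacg
The GC box was found in 4 of the 6 member promoters (Letm1, Mcur1, Micu2 and Smdt1) and in 35.7% of 32851 promoters of the same length. The NRF1 core, bound by a regulator of nuclear genes for mitochondria, was found only in Smdt1 among the 6, 86 bases before the start, and in 7.76% of all promoters. The estrogen-related receptor site AAGGTCA and the E-box CACGTG were found in 0 of the 6, against 4.72% and 7.15% of all promoters. No printed motif overlapped another, and the Mcu sequence held none of the 4.

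All 8 members are annotated as protein-coding. In GENCODE M21 on GRCm38, Mcu lies at chr10:59446984-59616692, Mcub at chr3:129914960-129970206, Micu2 at chr14:57916261-57999262 and Mcur1 at chr13:43538393-43560191, all on the minus strand. Letm1 (chr5:33739673-33782817, minus) and Slc8b1 (chr5:120511168-120534024, plus) share a chromosome, while Micu3 lies at chr8:40307458-40386308 and Smdt1 at chr15:82338959-82349091, both on the plus strand. The printed Smdt1 promoter window lies inside its GENCODE bounds, so the RefSeq start used for it is downstream of the first GENCODE base. Exons of Smdt1 share 245 bases with Pheta2 on the same strand, so reads there can belong to either gene. Pheta2 was listed at 1.13 to 14.6 normalized counts, far below Smdt1. Micu3 shares 202 bases with Fgf20 on the opposite strand, and Fgf20 did not exceed 1.21 normalized counts.

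Per kilobase of annotated exon, Smdt1 had the highest level of the 8, at 559 normalized counts per kb averaged over the 13 mice. Micu2 followed at 219 per kb, then Letm1 at 126, Mcur1 at 118, Mcu at 75.7, Micu3 at 51.9, Slc8b1 at 35.3 and Mcub at 6.73. Among vehicle mice, Letm1 (122 to 147 per kb) and Mcur1 (126 to 135 per kb) were the only neighbours in this order whose ranges overlapped. Among semaglutide mice, Micu3 (36.3 to 64.8 per kb) overlapped Mcu above it (49.5 to 87.0 per kb) and Slc8b1 below it (27.9 to 51.3 per kb). Exon length counts every annotated exon, so transcripts that use fewer exons are understated.

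**Figure D1:**
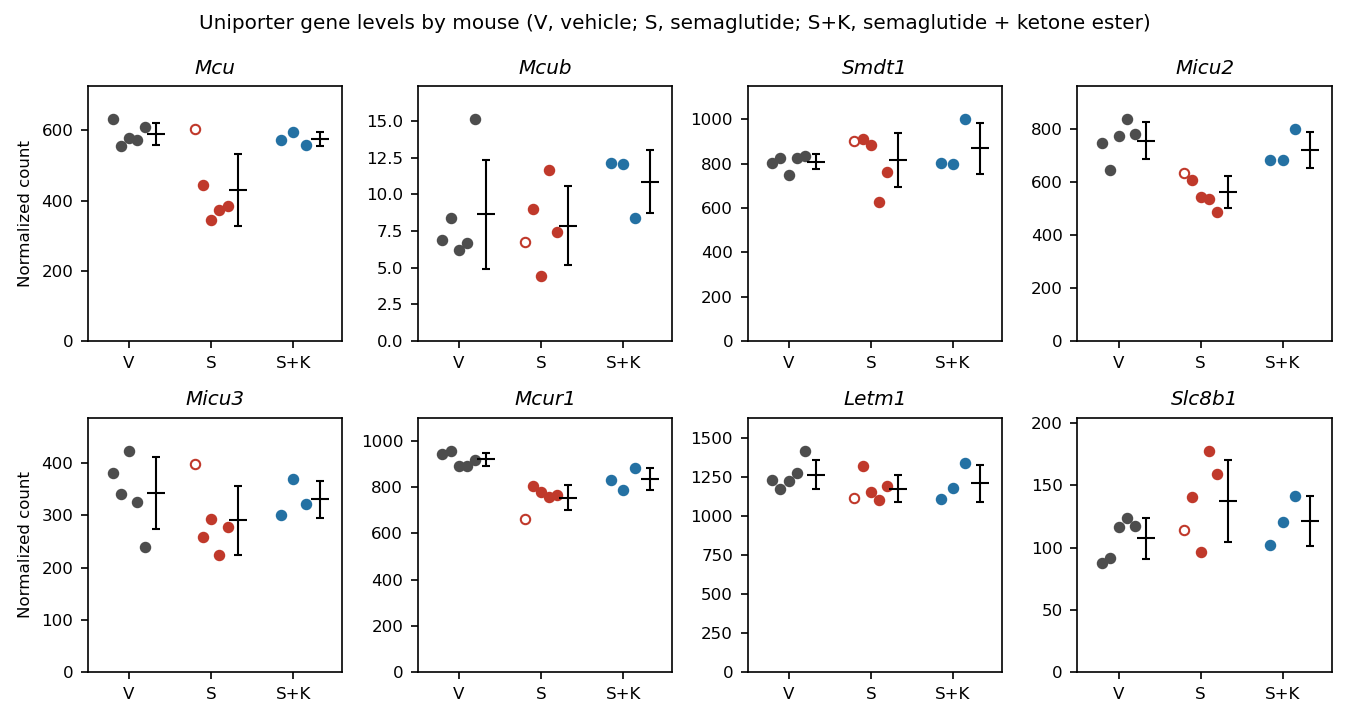
Normalized counts (vertical axes, each from 0) of the 8 members in the 13 mice, by group. Points are mice, the open point is semaglutide mouse 13, and black bars are the group mean ± SD; Mcu of mouse 13, at 603, sat within the vehicle range of 556 to 632.

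Mcu, the pore, was lower with semaglutide. Vehicle mice 1 to 5 had 632, 556, 578, 572 and 609 normalized counts. Semaglutide mice 13 to 17 had 603, 444, 343, 373 and 386. Mice 19, 21 and 22, given ketone ester as well, had 572, 597 and 559. Thus 4 of the 5 semaglutide mice lay below every other mouse, and mouse 13 lay among the vehicle mice. Group means were 589 ± 30.4 (SD, n = 5), 430 ± 104 (n = 5) and 576 ± 19.2 (n = 3). On the log2(normalized count + 1) scale, Mcu fell by 0.48 with semaglutide against vehicle (SE 0.12, limma adjusted p = 0.011), and by 0.61 without mouse 13 (limma adjusted p = 5.9e-05). With added ketone ester it was 0.45 higher than with semaglutide alone (SE 0.14, limma adjusted p = 0.039), and 0.58 higher without mouse 13 (limma adjusted p = 0.00031). The second of these calls was fragile, since it was lost in 11 of 13 fits that left out a mouse, with mouse 13 and vehicle mouse 1 the exceptions.

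Micu2, a gatekeeper, gave the smallest adjusted p of the 7 tested members in both comparisons with the semaglutide group. Its vehicle values were 747, 645, 773, 838 and 781 normalized counts in mice 1 to 5. Its semaglutide values were 636, 609, 545, 535 and 487 in mice 13 to 17, all below the lowest vehicle mouse. Its values with ketone ester were 683, 685 and 800, all above the highest semaglutide mouse. Means were 757 ± 70.8, 562 ± 59.8 and 723 ± 67.3. It fell by 0.43 with semaglutide (SE 0.09, limma adjusted p = 0.0049) and was 0.36 higher with added ketone ester (SE 0.11, limma adjusted p = 0.030). Without mouse 13 these were -0.48 (limma adjusted p = 0.0010) and 0.41 (limma adjusted p = 0.0078). The call with added ketone ester was lost on leaving out semaglutide mouse 15 or 17 or ketone ester mouse 21 or 22, and when only the 2 groups compared were fitted (limma adjusted p = 0.077). Groups that did not overlap in that way, lower with semaglutide and higher with ketone ester, made up 7.45% and 9.96% of the 12303 genes tested.

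Mcur1, the assembly factor, was the most even member among vehicle mice, with 942, 956, 890, 890 and 914 normalized counts and a coefficient of variation of 3.26%. Semaglutide mice 13 to 17 had 663, 802, 780, 756 and 767, so the groups did not overlap, and mouse 13 was here the lowest. Mice 19, 21 and 22 had 831, 786 and 882, between the 2 other groups and below all vehicle mice, though overlapping the semaglutide mice. It fell by 0.29 with semaglutide (SE 0.07, limma adjusted p = 0.0085), and by 0.24 without mouse 13 (limma adjusted p = 0.0076). The difference of 0.15 with added ketone ester was not called (95% interval -0.03 to 0.32, limma adjusted p = 0.22). Nor was the difference from vehicle of -0.14 (95% interval -0.31 to 0.03, limma adjusted p = 0.60), although those groups did not overlap, as was the case in this direction for 5.88% of genes.

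The 4 other tested members passed the threshold in no comparison. Smdt1, the essential regulator, had 806, 827, 751, 824 and 836 normalized counts in vehicle mice 1 to 5. Semaglutide mice 13 to 17 had 904, 914, 884, 629 and 763, so they spanned the vehicle range on either side. With ketone ester the values were 805, 801 and 1001. The log2 difference of semaglutide from vehicle was 0.01 (95% interval -0.22 to 0.23, limma adjusted p = 0.98), a sign that flips under quantile normalization. By RT-qPCR of gastrocnemius, the paper reports lower Smdt1 with semaglutide and no such decrease when ketone ester was added. That assay drew on mice of the N and J substrains, while the paper gives the RNA-seq mice as the N substrain alone. Its values were normalized to the housekeeping genes Rpl32 and Ywhaz. The paper does not state whether the mice sequenced here were among those assayed. The reason for the difference from these values was not tested.

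Micu3, a gatekeeper best known from brain, spanned 240 to 423 normalized counts in vehicle, 223 to 398 in semaglutide and 300.0 to 368 in semaglutide + ketone ester mice. Its log2 difference with semaglutide was -0.24, with a wide 95% interval of -0.59 to 0.11. Letm1, the ion exchanger, spanned 1174 to 1420, 1104 to 1321 and 1113 to 1344 in the same order, and its difference was -0.11 (95% interval -0.28 to 0.06). All groups overlapped for both genes.

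Slc8b1, the calcium exporter, was the one member besides Smdt1 with a higher mean in semaglutide than in vehicle mice. Its vehicle values were 88.1, 91.5, 116, 124 and 118 normalized counts, its semaglutide values 114, 141, 96.6, 178 and 159, and its values with ketone ester 102, 121 and 142. Thus 3 of 5 semaglutide mice exceeded all vehicle mice and 2 did not. The log2 difference was 0.33 (95% interval -0.03 to 0.70, limma adjusted p = 0.17).

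Mcub, the subunit that lowers channel activity, was scarcely detected. It rested on 4 to 13 reads per mouse, and its mean of 8.87 normalized counts missed the minimum of 10 set for testing. Levels were 8.65 ± 3.72 in vehicle, 7.87 ± 2.68 in semaglutide and 10.9 ± 2.14 in semaglutide + ketone ester mice. At this depth, the main fit did not test these differences.

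**Figure D2:**
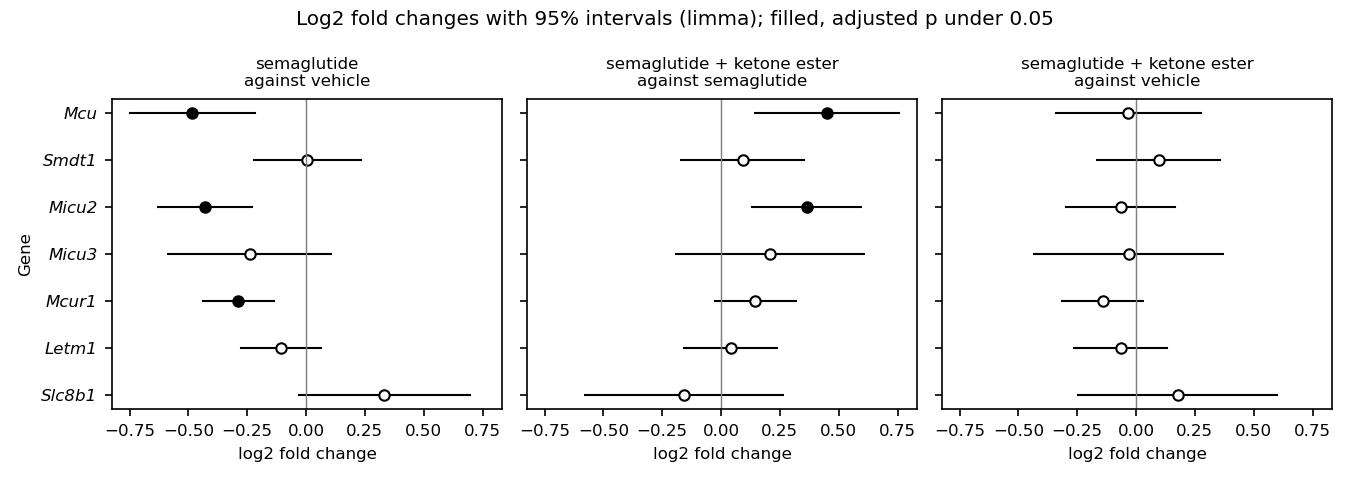
Log2 fold changes (horizontal axes, log2(normalized count + 1) scale) of the 7 tested members in the 3 comparisons, with limma 95% intervals as lines; filled points have an adjusted p under the threshold of 0.05. Mcu, Micu2 and Mcur1 are filled at the left, Mcu and Micu2 in the middle, and none at the right.

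Across the members, 3 of 7 were called lower and 0 higher with semaglutide, at adjusted p under 0.05 over all genes. The median log2 difference was -0.24, against -0.0029 for all 12303 genes. Of all genes, 13.9% were called lower and 26.5% in either direction, so a call in this comparison was common. With added ketone ester, 2 of 7 were called higher and 0 lower, where 10.0% of genes were called higher and 20.7% in either direction. The 2 comparisons share the 5 semaglutide mice, so their opposite signs are not independent. Against vehicle, semaglutide + ketone ester mice had 0 of 7 members called by limma, 0 by edgeR and 0 at an unadjusted p under 0.05, where 0.366% of all genes were called. An F test over the 3 groups called Mcu, Micu2 and Mcur1 (limma adjusted p = 0.019, 0.0091 and 0.021), as it did 26.5% of genes. None of the 7 met the study's own criterion, an analysis of variance p under 0.05 with a fold of at least 1.5 between group means, which 16.1% of genes met. The highest to lowest ratio of group means was 1.37 for Mcu, 1.35 for Micu2 and 1.22 for Mcur1.

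The calls depended on scaling: edgeR with its own scaling kept them, but equal totals did not. When each mouse's values were rescaled to an equal total, the median of all genes moved to 0.17 with semaglutide and -0.24 with added ketone ester, and 0 members were called in either comparison. Mcu was then -0.31 against vehicle (limma adjusted p = 0.062) and Micu2 -0.26 (limma adjusted p = 0.059), while Mcur1 was -0.11 (limma adjusted p = 0.29). With added ketone ester, Mcu was 0.21 higher (limma adjusted p = 0.25) and Micu2 0.13 higher (limma adjusted p = 0.42). Over all genes, equal totals changed the split of calls with semaglutide from 12.5% higher and 13.9% lower to 27.2% and 8.01%. With added ketone ester the split changed from 10.0% and 10.7% to 5.18% and 30.2%. The split with semaglutide was 14% and 13.5% under quantile normalization, and 14.4% and 12.5% with edgeR.

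Markers of other cells also moved between these groups. All 5 blood markers were called higher with added ketone ester than with semaglutide alone. With semaglutide against vehicle 0 were called by limma and 5 had an unadjusted p under 0.05, with a median log2 difference of -2.41. Their summed level ranged over 1356 to 2291 normalized counts in vehicle, 50.5 to 3148 in semaglutide and 2849 to 5558 in semaglutide + ketone ester mice. Of 4 fibroblast markers, 3 were called lower with semaglutide and 2 higher with added ketone ester, with sums of 4924 to 11241, 4490 to 6032 and 6253 to 10496. Of 7 skeletal muscle markers, 3 were called higher with added ketone ester. With semaglutide against vehicle 0 were called by limma and 4 had an unadjusted p under 0.05, with a median log2 difference of -0.46, beside -0.48 for Mcu and -0.43 for Micu2. With added ketone ester the median was 0.75, beside 0.45 for Mcu and 0.36 for Micu2. Between semaglutide + ketone ester and vehicle mice it was 0.31, beside -0.03 for Mcu and -0.07 for Micu2. Of 4 endothelial markers, 2 were called higher with added ketone ester, and with semaglutide 0 were called by limma and 2 had an unadjusted p under 0.05. Among 3 tendon markers, 1 was called lower with semaglutide, and 1 was called higher and 1 lower with added ketone ester. Of 19 adipocyte, macrophage, slow fibre and Schwann cell markers, 0 were called by limma in any comparison, and 1 of the 57 tests had an unadjusted p under 0.05. In that order, their median log2 differences with semaglutide were -0.84, -0.19, -0.47 and 0.16. With added ketone ester they were 0.96, 0.15, 0.19 and -0.19. The part of these cells in the member results was not tested.

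The balance between members was examined as log2 ratios to Mcu within each mouse. Mcu itself fell by 0.48 with semaglutide, so a gene that did not change also shows a higher ratio to it. Smdt1, for example, differed by only 0.01. Shifts in these ratios are therefore not separate from the fall of Mcu, and no share over all genes is given for them. Smdt1 to Mcu was 0.46 ± 0.09 in vehicle and 0.94 ± 0.30 in semaglutide mice, and every semaglutide mouse exceeded every vehicle mouse. The difference of 0.49 had the smallest p that 5 against 5 mice can give in a two-sided exact permutation test, p = 0.0079, but an adjusted p of 0.17 over the 21 tests made. Slc8b1 to Mcu was 0.82 higher with semaglutide (exact permutation p = 0.032, adjusted p = 0.33) and Letm1 to Mcu 0.38 higher (exact permutation p = 0.048, adjusted p = 0.33). The gatekeeper ratios shifted less, Micu2 to Mcu by 0.05 (exact permutation p = 0.67) and Micu3 to Mcu by 0.24 (exact permutation p = 0.24). Mcub to Mcu, on its few reads, differed by 0.38 (exact permutation p = 0.26). Of the 21 ratio tests, 0 passed after adjustment and 3 had an unadjusted p under 0.05, all with semaglutide against vehicle. Over 21 tests, a single ratio at the smallest possible p still has an adjusted p above 0.05. The count of 0 therefore does not show that the ratios were unchanged. Mouse 13 was the lowest semaglutide mouse for the Smdt1, Slc8b1, Letm1, Micu2 and Mcub ratios. Without it the differences with semaglutide were 0.58 for Smdt1, 1.00 for Slc8b1 and 0.52 for Letm1 (exact permutation, adjusted p = 0.056 for each). Micu2 to Mcu was then 0.14 (exact permutation, adjusted p = 0.42), Micu3 to Mcu 0.25 and Mcub to Mcu 0.54.

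**Figure D3:**
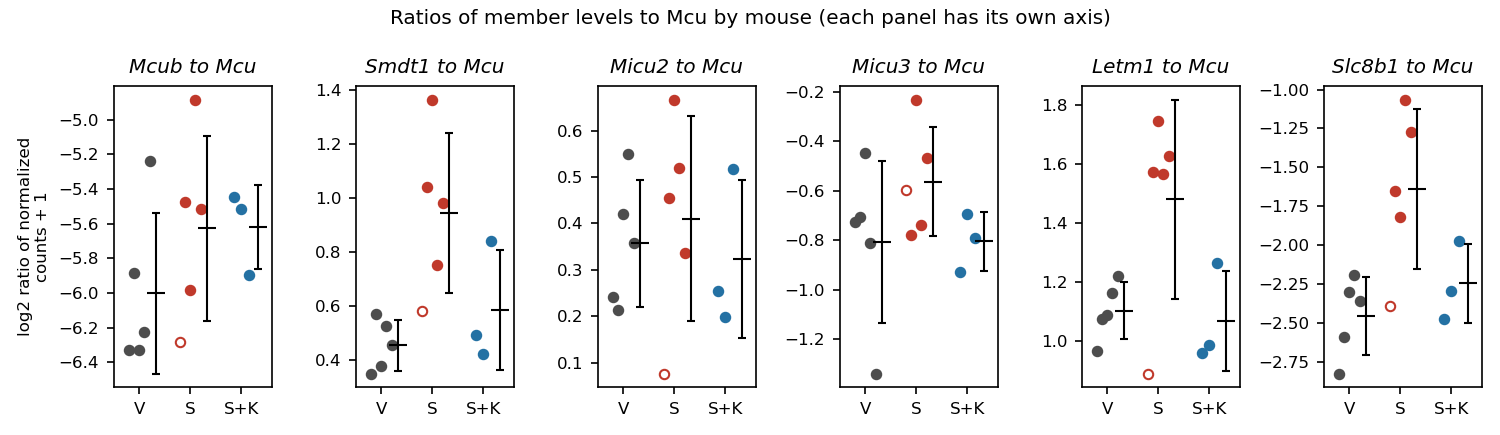
Log2 ratios of normalized counts + 1 to Mcu (vertical axes, each with its own range) in the 13 mice for 6 members. Points are mice, the open point is semaglutide mouse 13, and bars are the group mean ± SD; Smdt1 to Mcu spans 0.35 to 0.57 in vehicle and 0.58 to 1.36 in semaglutide mice.

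A reference of 24 nuclear genes held 23 genes of the respiratory chain and ATP synthase, which the matrix calcium signal serves, and Cs, the citrate synthase of the tricarboxylic acid cycle. All 24 were called lower with semaglutide and all 24 higher with added ketone ester, among them Ndufs1 (complex I) at -0.85 and 1.00 and Uqcrc1 (complex III) at -0.81 and 0.94. Cox5b, of cytochrome c oxidase, fell by 0.71 with semaglutide, and Cyc1, cytochrome c1, was 0.88 higher with added ketone ester. Their mean log2 level relative to vehicle was -0.55 ± 0.16 in semaglutide and 0.12 ± 0.22 in semaglutide + ketone ester mice, with an SD of 0.08 among vehicle mice. The Mcu to reference ratio differed by 0.06 between semaglutide and vehicle (exact permutation p = 0.61), with an SD of 0.25 among semaglutide mice. Without mouse 13, the highest semaglutide mouse for this ratio, the difference was -0.028 (exact permutation, adjusted p = 0.87). Over the 13 mice, which include the group differences, Pearson's r with the reference was 0.90 for Micu2, 0.81 for Mcu, 0.67 for Mcur1, 0.47 for Smdt1 and -0.42 for Slc8b1. These correlations are descriptions of mice that share normalization and groups.

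**Figure D4:**
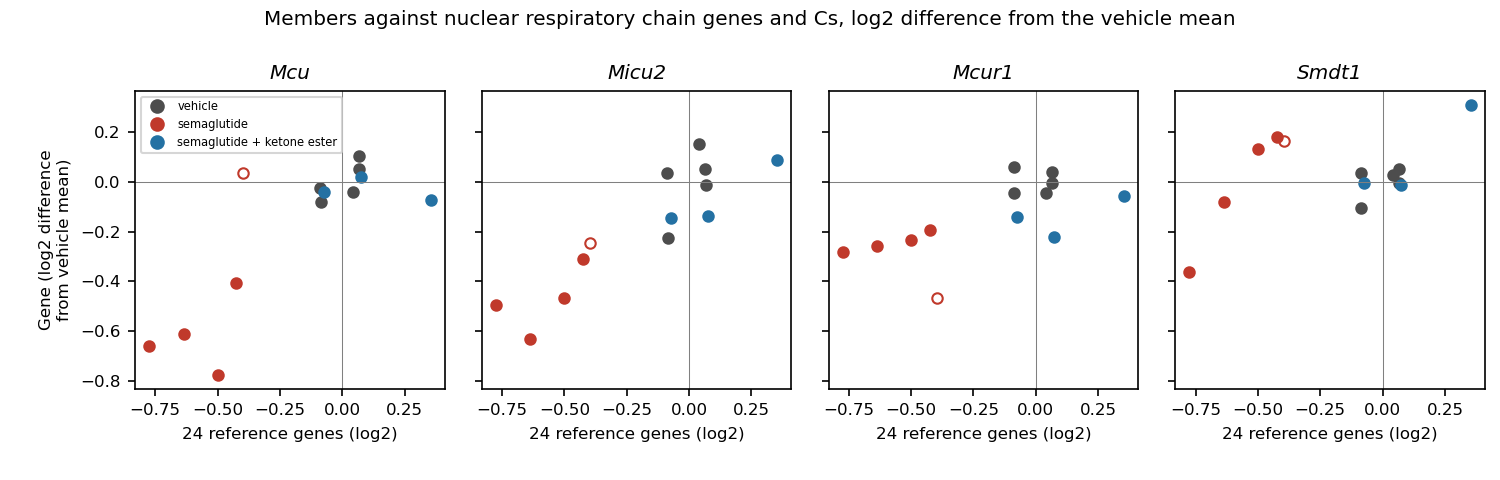
Log2 difference from the vehicle mean of Mcu, Micu2, Mcur1 and Smdt1 (vertical axes) against the mean of the 24 reference genes (23 of the respiratory chain and ATP synthase, and Cs; horizontal axes) in the 13 mice. Grey, red and blue points are vehicle, semaglutide and semaglutide + ketone ester mice, and the open point, semaglutide mouse 13, is below the vehicle mice on the horizontal axis but at the vehicle level of Mcu.

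Partners of the uniporter and other inner membrane calcium proteins were mixed in direction. Of 11 tested, 3 were called higher and 2 lower with semaglutide, and 2 higher and 1 lower with added ketone ester. Over all genes, 12.5% were called higher and 13.9% lower with semaglutide, and 10.0% and 10.7% with added ketone ester. These shares are the background for the main-fit counts in every list and marker set here. For counts at equal totals, the shares were 27.2% higher and 8.01% lower with semaglutide, and 5.18% and 30.2% with added ketone ester. No such share is given for unadjusted p-values. Ppif, which encodes the permeability transition regulator cyclophilin D, fell by 0.65 with semaglutide and rose by 0.65 with added ketone ester. Tmem65, which encodes an inner membrane protein linked to NCLX, fell by 0.57 with semaglutide. Phb2, an inner membrane scaffold of the prohibitin family, moved the other way, 0.57 higher and then 0.58 lower. Slc25a23, an ATP-Mg/phosphate carrier, rose by 0.38 with added ketone ester, a call lost in 9 of 13 fits that left out a mouse. At equal totals the list had 5 higher and 2 lower with semaglutide, and 1 higher and 4 lower with added ketone ester.

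On the outer membrane and its contacts with the reticulum, 5 of 14 genes were called lower with semaglutide and 0 higher, and 4 were called higher with added ketone ester. Itpr1, an inositol trisphosphate receptor that releases calcium from the reticulum, had the largest difference, from 842 ± 93.4 in vehicle to 341 ± 61.5 in semaglutide and 589 ± 70.3 in semaglutide + ketone ester mice. It fell by 1.31 with semaglutide and rose by 0.80 with added ketone ester. Semaglutide + ketone ester mice remained 0.51 below vehicle (95% interval -0.81 to -0.22), though not called (limma adjusted p = 0.16). Vdac1, the outer membrane channel, fell by 0.68 and was 0.67 higher with added ketone ester. Fundc1, a mitophagy receptor, fell by 0.56 and was 0.40 higher, the latter a call lost on leaving out any of the 3 ketone ester mice. At equal totals the list had 2 higher and 3 lower with semaglutide, and 2 in each direction with added ketone ester.

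Among 13 mitochondrial carriers and enzymes that sense calcium, 9 were called lower with semaglutide and 0 higher, with a median of -0.57, while 7 were called higher and 0 lower with added ketone ester, with a median of 0.62. At equal totals these counts were 7 lower and 0 higher, then 6 higher and 2 lower. Idh3a, the catalytic subunit of the calcium-stimulated isocitrate dehydrogenase, fell by 0.78 and was 0.87 higher with added ketone ester. Efhd1, an EF-hand protein, fell by 1.21 from 49.9 ± 4.68 normalized counts and was 1.07 higher with ketone ester, the latter a call also lost on leaving out any of the 3 ketone ester mice. Pdp1, the calcium-stimulated phosphatase of pyruvate dehydrogenase, fell by 0.57 with semaglutide (limma adjusted p = 0.021) and was 1.10 higher with added ketone ester. Semaglutide + ketone ester mice were 0.53 above vehicle for Pdp1 (95% interval 0.13 to 0.94), though not called (limma adjusted p = 0.31). Gpd2, the glycerol phosphate dehydrogenase of the inner membrane, fell by 0.71 with semaglutide, a call that edgeR did not make (adjusted p = 0.11) and that was lost in 12 of 13 fits that left out a mouse, all but that without mouse 13. In these 3 lists, 0 genes were called by limma between semaglutide + ketone ester and vehicle mice, and 1, 1 and 2 had an unadjusted p under 0.05. Fits with mouse weights or of only the 2 groups each called 1 outer membrane gene lower and 1 calcium-sensing gene higher in that comparison, and a fit without mouse 13 called 1 outer membrane gene lower. Without mouse 13, the semaglutide calls in the 3 lists were 2, 1 and 1 higher and 2, 5 and 9 lower.

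**Figure D5:**
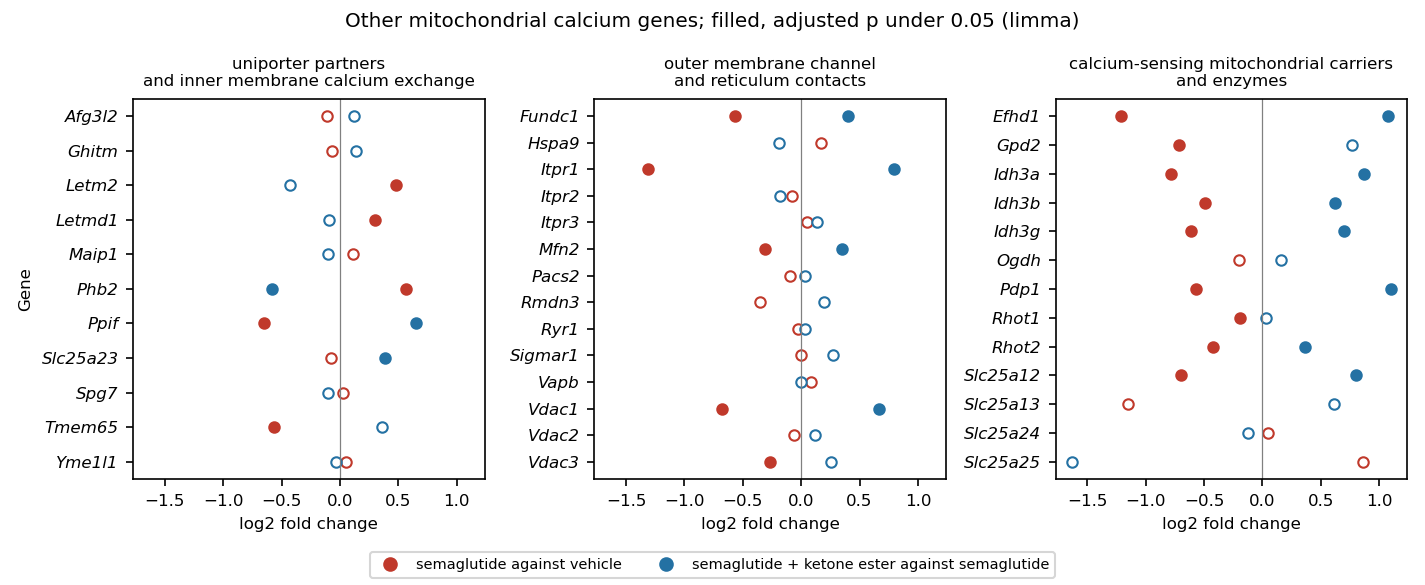
Log2 fold changes (horizontal axes) of the genes in 3 lists, with semaglutide against vehicle in red and semaglutide + ketone ester against semaglutide in blue; filled points have an adjusted p under 0.05 by limma. Calcium-sensing genes at the right sit mostly left of 0 in red and right of 0 in blue, with 9 and 7 filled.

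The genes whose log2 levels most resembled each member over the 13 mice were listed by Pearson's r without a test. For Mcu they were Ttl (r = 0.97), Galnt17 (0.97) and Vwa3b (0.97), and for Micu2 they were Grb14 (0.96), Ckmt2 (0.95) and Mrpl28 (0.95). Mcur1 was most like Hr (0.92), Atg4c (0.92) and Rhoa (0.90). Micu3 was most like Polr3g (0.95), Tmem138 (0.91) and Tmem64 (0.91). The closest genes were weaker for Smdt1 (D5Ertd579e 0.88, Med23 0.87, Atp6v0e2 0.87), Letm1 (Armh4 0.86, Ciapin1 0.85, Zfp770 0.82) and Slc8b1 (Lmbr1l 0.86, Tmem205 0.81, Il2rg 0.81). Among members, Mcu and Micu2 were the most alike pair (r = 0.83), and Slc8b1 had a negative r with every tested member except Letm1 (0.10).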

How the data were processed

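RNA was extracted from gastrocnemius with TRIzol. Libraries were made with a stranded mRNA kit, sequenced as paired-end reads, and processed with DRAGEN on mm10 per the labels, which also name DESeq2. The counter, annotation and normalization method were not given in the sources used here. The authors deposited normalized counts per gene, a signal in which every value was a whole multiple of the worth of 1 read in that mouse (tolerance 0.01), so read counts were recovered.

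From these values, log2(normalized count + 1) was fitted with limma 3.58.1 (trend on, 3 groups) for 12303 genes with a mean of at least 10, and p-values were adjusted over all of them by Benjamini-Hochberg. Ratios (7 in 3 comparisons) were tested by two-sided exact permutation, whose smallest p is 0.0079 for 5 against 5 mice and 0.018 for 3 against 5. Alternatives were a pseudocount of 5, no filter, equal totals, quantile normalization, weights per mouse, edgeR 4.0.16 on recovered reads, fits of only 2 groups, and leaving out each mouse. The scripts were tested on simulated data.

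Named genes were all 8 members; in each other list and comparison, up to 3 genes with the largest log2 change at adjusted p under 0.05; and the 3 genes most like each member. A gene of the partner list is not reported here. Marker lists are given by totals. Members and lists were chosen with earlier results of these data known. Coordinates are from GENCODE M21, which held 21689 of the 21868 symbols. P-values measure the spread between mice.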

Additional observations from a re-analysis of the deposited data

Results flagged for a closer look

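Among 32 sets of values from groups of 5 mice (8 members, 7 ratios and the respiratory reference), 2 held a mouse far from the others of its group, where chance gives about 1 in 20. Vehicle mouse 5 had 15.1 normalized counts of Mcub, against 6.19 to 8.43 in the other vehicle mice, a gap of 0.75 of the group's range that rests on 13 reads. Semaglutide mouse 13 had a log2 ratio of Letm1 to Mcu of 0.89, against 1.56 to 1.75 in the other semaglutide mice, a gap of 0.79 of the range.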

How the results depend on the processing

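No paired analysis was possible because no mouse number is shared between groups. Rescaling to equal totals left 0 members called in both comparisons with semaglutide. It reversed Letm1 with semaglutide against vehicle (0.068), and Micu3 (-0.028), Smdt1 (-0.15), Mcur1 (-0.091) and Letm1 (-0.20) with added ketone ester. A fit of only the 2 groups compared left 0 members called with added ketone ester (Mcu limma adjusted p = 0.12, Micu2 0.077), with the same fold changes and fewer mice behind the spread. Under the study's criterion 0 members were altered across the 3 groups; without its fold criterion, an alternative chosen after seeing the data like every alternative for the other lists, 3 were. Quantile normalization reversed Smdt1 with semaglutide (-0.034), Micu3 between semaglutide + ketone ester and vehicle (0.00099) and the Letm1 to Mcu ratio there (0.0010). The Mcub to Mcu ratio with added ketone ester reversed with a pseudocount of 5 (-0.13) and with quantile normalization (-0.16). Mouse weights and edgeR kept 3 and 2 member calls. The fits of 2 groups also ended the calls with added ketone ester of Slc25a23 (limma adjusted p = 0.11), Fundc1 (0.063) and Efhd1 (0.094) and that of Gpd2 with semaglutide (0.071). Without the filter Slc25a23 (limma adjusted p = 0.060) and Gpd2 (0.059) were not called, at equal totals neither these nor Fundc1 (0.23), and after quantile normalization not Efhd1 (0.053). The respiratory reference kept 19 to 24 genes lower with semaglutide and 20 to 24 higher with added ketone ester over all alternatives run.

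Leaving out each mouse in turn kept 3 members called with semaglutide and 0 against vehicle with ketone ester. With added ketone ester, 0 to 2 remained: 0 without semaglutide mouse 15 or 17 or ketone ester mouse 21 or 22, and 1 without vehicle mouse 2, 3, 4 or 5, semaglutide mouse 14 or 16, or ketone ester mouse 19. The calcium-sensing list had 6 to 9 genes lower with semaglutide and 5 to 8 higher with added ketone ester, the outer membrane list 5 and 2 to 5, and the partners 2 lower and 1 to 3 higher, then 1 to 3 higher. The F test called 2 to 3 members. The ratios stayed at 0 called, a count that a single ratio could not have changed at these group sizes. Signs changed in differences near 0. Smdt1 ranged over -0.038 to 0.097 with semaglutide, -0.014 to 0.15 with added ketone ester and -0.0091 to 0.15 for semaglutide + ketone ester against vehicle. Letm1 ranged over -0.035 to 0.10 with added ketone ester, and Micu3 over -0.15 to 0.051 for semaglutide + ketone ester against vehicle. Among ratios, Mcub to Mcu ranged over -0.15 to 0.19 with added ketone ester, Micu2 to Mcu over -0.010 to 0.14 (without mouse 13) with semaglutide, and the Mcu to reference ratio over -0.028 (without mouse 13) to 0.15 with semaglutide. For semaglutide + ketone ester against vehicle, Micu2 to Mcu ranged over -0.13 to 0.029, Micu3 to Mcu over -0.13 to 0.090 and Letm1 to Mcu over -0.13 to 0.023. The cause of these shifts was not tested. Depth limits Mcub.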
